A study of Mus musculus with 14 samples.

Results

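The M-band is the line in the middle of the sarcomere where thick filaments are tied to each other. Its cross-linkers are the myomesins (Myom1, myomesin-1; Myom2, the M-protein of fast fibres; Myom3, myomesin-3), and Obsl1 encodes an adaptor protein that binds titin and myomesin there. Ttn encodes titin, the giant elastic protein that spans from Z-disc to M-band and serves as a ruler of the thick filament. The myosin-binding proteins sit in stripes along the thick filament: Mybpc1 is the slow skeletal form of myosin-binding protein C, Mybpc2 the fast skeletal form, Mybpc3 the cardiac form, and Mybph the shorter protein H. Fast and slow fibres differ in which of these proteins they hold, and their messages are known to build up as myoblasts become myotubes.

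The 9 genes were taken by symbol from a table of 24016 RefSeq transcripts, 1 transcript per gene, and all 9 were found. The cells were C2C12, mouse myoblasts of an established line that forms myotubes in differentiation medium with 2% horse serum. The cells were transfected with control siRNA (siCtrl) or with a pool of siRNAs against Klf5 (siKlf5), a zinc-finger transcription factor that binds GT-boxes, and RNA was collected on days 0, 1, 2 and 3. There was 1 library per siRNA and day, 8 in all, so each condition is a single culture of 1 cell line and no value has a replicate error. The study asked whether Klf5 is needed for genes of the myogenic program, and 6 ChIP samples of the series were not analysed here.

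Depth, recovered from the deposited FPKM values, ranged from 7850488 reads (siCtrl, day 1) to 20301492 reads (siCtrl, day 2). FPKM is reads per kilobase of exon scaled by library, here with a total of 10000000, so values of different genes can be compared per length. Intervals beside ratios are 95% exact intervals on reads taken in units of 6, and cover counting error only. Klf5 was at 15.7%, 41.9%, 31.3% and 22.7% of its control value on days 0, 1, 2 and 3. The summed level of 6 myotube markers was between 792 and 993 FPKM on day 0 and between 11243 and 15799 from day 1 on, the myoblast regulator Myod1 was between 398 and 557, and 6 markers of blood, endothelial, epithelial, fat and glial cells summed to 0.487 to 7.69, with Epcam at 0 in every library. The sum of 5 cell cycle markers over days 0 to 3 was 2450, 964, 1224 and 709 in siCtrl cells, against 2659, 1246, 1244 and 929 in siKlf5 cells. In bulk RNA fewer cells of a type and less RNA per cell cannot be told apart.

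Of the 9 genes, 8 had a mean FPKM of at least 1 and entered the tests. Mybpc3, the cardiac form, was listed at 0 in all 8 libraries, against a limit of 18 reads, or 2.22 FPKM in siCtrl and 2.45 FPKM in siKlf5 cells on day 0. All 8 detected genes rose during differentiation, whereas the siRNA moved them unequally. Mybph and Myom2 were lower in siKlf5 cells on every day, Mybpc2 was lower and Mybpc1 higher on every day with a value, and Myom1, Myom3, Obsl1 and Ttn had different signs on different days. None of the 8 passed the adjusted test of the siRNA effect over the 4 days.

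The detected myomesins and myosin-binding proteins all rose in differentiation. The DNA upstream of Myom1, Obsl1 and Mybpc3 is not shown and enters only the counts below. For the other genes the stretch upstream of the start is shown. Each is the 250 bases before the transcript start (mm9, 5′ to 3′ on the strand of the gene), with matches in capitals to the E-box (CANNTG, bound by MyoD and myogenin), the GT-box (CACCC, bound by Klf factors), the MCAT element (CATTCC, bound by Tead factors) and the Mef2 motif, each on both strands.
Mybph, chr1:136089775-136090024 (plus strand): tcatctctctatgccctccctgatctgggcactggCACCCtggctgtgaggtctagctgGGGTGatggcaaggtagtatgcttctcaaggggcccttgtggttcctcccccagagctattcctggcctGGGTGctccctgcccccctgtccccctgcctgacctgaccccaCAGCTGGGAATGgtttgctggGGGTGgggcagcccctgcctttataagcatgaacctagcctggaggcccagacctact
Myom2, chr8:15057403-15057652 (plus strand): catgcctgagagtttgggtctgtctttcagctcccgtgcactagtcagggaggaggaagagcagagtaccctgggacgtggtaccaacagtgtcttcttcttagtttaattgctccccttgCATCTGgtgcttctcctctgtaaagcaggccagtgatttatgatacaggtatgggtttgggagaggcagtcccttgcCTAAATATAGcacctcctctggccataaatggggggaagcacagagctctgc
Myom3, chr4:135315380-135315629 (plus strand): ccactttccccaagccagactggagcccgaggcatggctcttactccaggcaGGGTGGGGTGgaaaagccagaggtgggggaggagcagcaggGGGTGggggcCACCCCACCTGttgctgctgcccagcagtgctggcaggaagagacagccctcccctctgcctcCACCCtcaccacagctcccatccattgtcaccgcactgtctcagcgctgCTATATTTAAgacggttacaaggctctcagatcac
Ttn, chr2:76820605-76820854 (minus strand): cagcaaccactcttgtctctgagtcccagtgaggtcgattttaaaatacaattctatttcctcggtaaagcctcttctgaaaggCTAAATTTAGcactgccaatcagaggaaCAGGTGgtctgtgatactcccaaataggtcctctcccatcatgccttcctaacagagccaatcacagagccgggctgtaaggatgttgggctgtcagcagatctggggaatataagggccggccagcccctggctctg
Mybpc1, chr10:88067898-88068147 (minus strand): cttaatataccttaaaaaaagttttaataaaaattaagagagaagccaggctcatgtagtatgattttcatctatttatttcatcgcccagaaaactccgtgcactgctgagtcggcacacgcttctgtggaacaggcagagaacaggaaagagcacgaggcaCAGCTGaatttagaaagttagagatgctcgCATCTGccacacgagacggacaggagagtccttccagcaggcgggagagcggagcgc
Mybpc2, chr7:51780040-51780289 (minus strand): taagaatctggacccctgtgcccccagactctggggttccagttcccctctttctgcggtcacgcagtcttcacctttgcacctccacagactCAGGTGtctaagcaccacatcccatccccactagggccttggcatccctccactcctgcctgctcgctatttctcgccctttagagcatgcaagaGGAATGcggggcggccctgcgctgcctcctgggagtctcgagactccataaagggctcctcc

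Counted over 300 bases, 250 before to 50 after the start, Mybph and Myom3 each held 5 GT-box matches, Mybpc3 held 2, Ttn held 1, and the other 5 genes held none. Of 23950 such windows in the table, 58.0% held at least 1, and 4 of the 9 genes did. Neither Mybph nor Myom3 passed the adjusted siRNA test. Matches outside these windows were not counted, and a link between matches and siRNA effect was not tested. All 9 windows held an E-box, as did 68.9% of all windows. A Mef2 match lay upstream of Myom2, Myom3, Ttn and Mybpc3, 4 of 9 genes, against 2.73% of all windows. It began 52 bases before the start in Myom2, 35 in Myom3, 166 in Ttn and 90 in Mybpc3. An MCAT match was found in Mybph, Mybpc2 and Ttn, against 13.3% of all windows. In Mybph the MCAT match directly followed the only E-box, which began 79 bases before the start, and no matches of different motifs shared bases in these windows. A match is only a match of letters.

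The study also listed primers for chromatin immunoprecipitation at 2 of the genes, and the stretches they span in mm9 are shown because they are the regions it chose to test at Mybph and Myom2. The factor it tested at both was MyoD, at enhancers with E-boxes, and it reported less MyoD there in Klf5-null than in control myotubes. By quantitative PCR with biological replicates, it also reported less Mybph and Myom2 message after Klf5 knockdown. Its text names both as lower in satellite cells with Klf5 deleted, too. From its Klf5 ChIP-seq, which was not analysed here, the study reported Klf5 bound at regulatory regions of Mybph during differentiation. Capitals mark E-boxes, of which each stretch holds 2, and neither holds a GT-box match.
Mybph, chr1:136092750-136092845 (plus strand): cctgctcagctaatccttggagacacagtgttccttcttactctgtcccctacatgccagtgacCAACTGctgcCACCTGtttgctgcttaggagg
Myom2, chr8:15056952-15057061 (plus strand): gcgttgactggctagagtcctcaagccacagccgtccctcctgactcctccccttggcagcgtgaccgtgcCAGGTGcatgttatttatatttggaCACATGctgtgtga

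The Mybph stretch is 96 bases long and lies 2725 to 2820 bases after the start, inside the gene and between the third and the fourth of the 11 distinct exons that GENCODE annotates. The Myom2 stretch is 110 bases long, lies 701 to 592 bases before the start and overlaps no annotated gene.

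Every detected gene of the 9 rose from day 0 to day 3, as seen in the plot of FPKM values by day. Over both siRNAs, the fitted day 3 level was higher than that of day 0 for all 8 (limma, siRNA as block, adjusted p between 1.66e-06 and 0.00106), with log2 differences from 3.16 (Ttn) to 5.18 (Myom1) for the 6 genes detected in every library. Mybpc1 and Mybpc2 each had a library at 0 on day 0, so their fitted differences depend on the pseudocount. Against the limit of 18 reads, Mybpc1 was at least 27.8-fold higher on day 3 than on day 0 in siCtrl cells and Mybpc2 at least 20.9-fold higher in siKlf5 cells. Over all 14312 transcripts tested, 12.8% were called higher and 17.6% lower. Each of the 8 was also at least 2-fold above day 0 on day 3 in both siRNAs, as were 15.5% of transcripts in siCtrl and 14.9% in siKlf5 cells. With median-ratio centring the split over all transcripts turned from 1831 higher and 2516 lower to 2175 and 1826, while all 8 genes kept their calls. The small p-values lean on the intensity trend of the fit. Without it the adjusted p of the 8 were larger, between 0.0026 (Myom2) and 0.0293 (Mybpc1, limma).

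**Figure D1:**
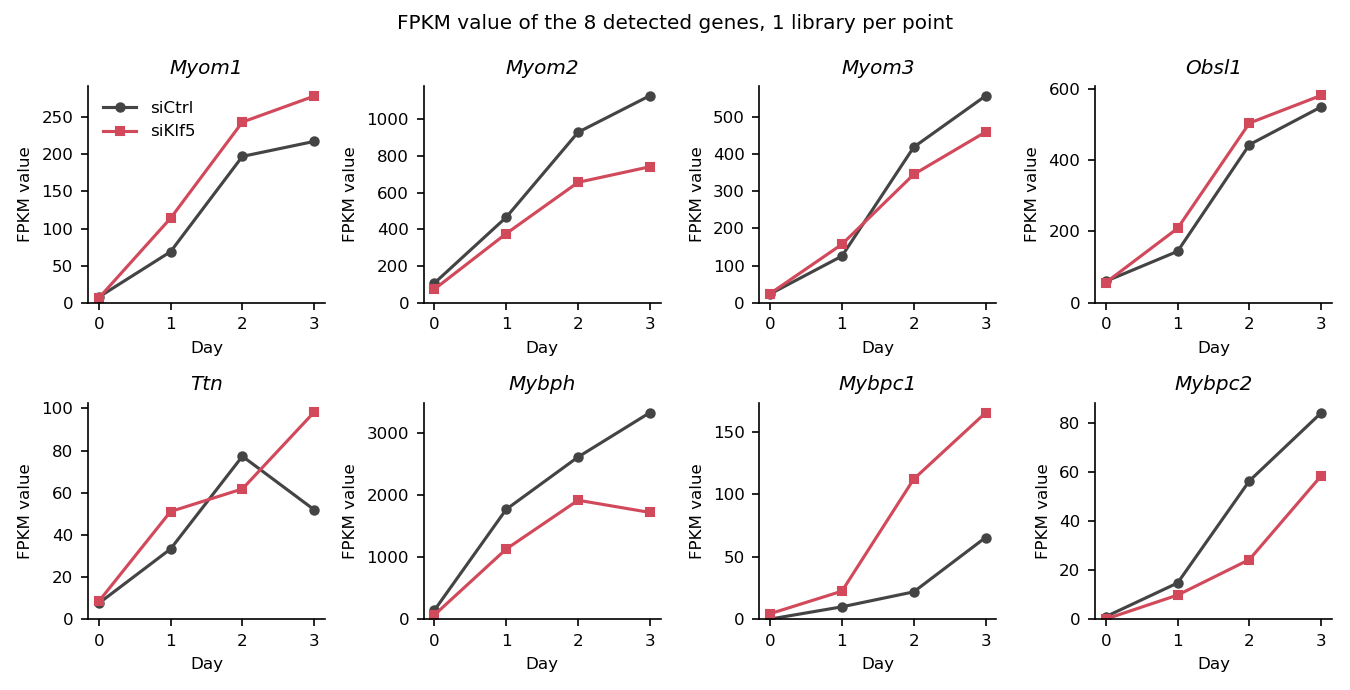
FPKM value (vertical axis, each panel with its own scale from 0) of the 8 detected genes on days 0 to 3, with 1 library per point, siCtrl in grey circles and siKlf5 in red squares. Both lines end above their day 0 value in every panel. Mybph ends at 3337 in siCtrl and 1724 in siKlf5 cells, Mybpc1 at 65.3 and 165, and the Ttn lines cross before and after day 2.

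Mybph (NM_016749, chr1:136090025-136097809, plus strand, 1816 exonic bases) encodes myosin-binding protein H and was the most abundant of the 9 genes from day 1 on. In siCtrl cells its FPKM values were 143, 1774, 2619 and 3337 on days 0, 1, 2 and 3. In siKlf5 cells they were 66.8, 1132, 1921 and 1724. The siKlf5 value was the lower one on each day, and it was lower on day 3 than on day 2, unlike in siCtrl cells. The log2 ratio of siKlf5 to siCtrl was -1.10 (95% interval -1.70 to -0.52) on day 0, -0.65 (-0.82 to -0.47) on day 1, -0.45 (-0.55 to -0.35) on day 2 and -0.95 (-1.07 to -0.84) on day 3. Over the 4 days the siRNA effect was -0.79 ± 0.11 on the log2 scale (SE, limma with day as block), lower on 4 of 4 days, with an adjusted p of 0.0868. In that test 0.0559% of all transcripts were called lower and 0.00699% higher, 8 and 1 in number, with Klf5 itself among them at -1.94 (adjusted p = 0.0244, limma). Mybph had 6.84 recovered reads per exonic base in siCtrl cells on day 3, and the highest transcript had 23.0. Both exceed what a limit of 3 reads per position would give, even counted on each strand. How the limit acted on the recovered reads is not known, and its part in the values was not tested. The 200 transcripts with the highest means, Mybph among them, had a median log2 ratio of 0.05, -0.08, 0.37 and 0.06 on days 0 to 3.

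Myom2 (NM_008664, chr8:15057653-15133419, plus strand, 4914 exonic bases) encodes M-protein and came second from day 1 on. Its values in siCtrl cells were 106, 465, 929 and 1128 FPKM on days 0 to 3. In siKlf5 cells they were 73.1, 376, 656 and 741. The siKlf5 library was below the siCtrl library of the same day on all 4 days. The log2 ratios were -0.54 (-0.90 to -0.18), -0.31 (-0.50 to -0.11), -0.50 (-0.61 to -0.40) and -0.61 (-0.72 to -0.50), and none of the 4 intervals reached 0. The effect over the days was -0.49 ± 0.08 (log2, SE), lower on 4 of 4 days, and missed the threshold with an adjusted p of 0.125 (limma).

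Myom1 (NM_001083934, chr17:71368897-71476196, plus strand, 5280 exonic bases), the myomesin of all striated muscle, went from 7.41 to 68.7, 197 and 218 FPKM in siCtrl cells. In siKlf5 cells it went from 6.04 to 114, 244 and 279. It was higher in siKlf5 cells on days 1, 2 and 3. Its log2 ratio was -0.29 (-1.68 to 1.03) on day 0, where 77 and 57 reads were behind it, then 0.73 (0.32 to 1.15), 0.30 (0.12 to 0.49) and 0.36 (0.16 to 0.56). The effect over the days was 0.27 ± 0.17 (log2, SE, adjusted p = 0.645, limma), and 0.12 without day 1 or 0.46 without day 0.

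Myom3 (NM_001085509, chr4:135315630-135371482, plus strand, 5539 exonic bases), known from fibres of intermediate speed, had 23.2, 125, 419 and 557 FPKM in siCtrl cells. It had 24.2, 157, 346 and 460 FPKM in siKlf5 cells. The siKlf5 value was above the siCtrl value on day 1 and below it on days 2 and 3. The log2 ratios were 0.06 (-0.60 to 0.72), 0.33 (0.01 to 0.65), -0.28 (-0.42 to -0.14) and -0.28 (-0.41 to -0.14). The effect over the days was -0.04 ± 0.12 (log2, SE, adjusted p = 0.947, limma), with a 95% interval from -0.32 to 0.24.

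Obsl1 (NM_178884, chr1:75482400-75503027, minus strand, 5748 exonic bases) was already at 59.8 FPKM on day 0 in siCtrl cells and reached 144, 443 and 549 FPKM. In siKlf5 cells it had 56.1, 208, 504 and 582 FPKM. Both siRNAs thus ended near each other, and the siKlf5 value was higher mainly on day 1, at a log2 ratio of 0.54 (0.26 to 0.82). The other ratios were -0.09 (-0.50 to 0.31) on day 0, 0.18 (0.06 to 0.30) on day 2 and 0.08 (-0.04 to 0.21) on day 3. The effect over the days was 0.18 ± 0.11 (log2, SE, adjusted p = 0.639, limma), and 0.059 without day 1 or 0.27 without day 0.

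Within each library the myomesins could be compared without regard to scaling. The ratio of Myom1 to Myom2 was 0.0697, 0.148, 0.213 and 0.193 in siCtrl cells on days 0 to 3. It was 0.0826, 0.303, 0.372 and 0.376 in siKlf5 cells, higher on 4 of 4 days and by 1.95-fold on day 3. The ratio of Myom3 to Myom2 was 0.218, 0.269, 0.452 and 0.494 in siCtrl and 0.332, 0.418, 0.528 and 0.621 in siKlf5 cells, also higher on 4 of 4 days. M-protein thus took a smaller part of the myomesin messages in siKlf5 cells on each day. The exact sign-flip test over the 4 days gave p = 0.125 for both ratios (two-sided), the smallest that 4 days allow. Both ratios are taken over Myom2, itself lower in siKlf5 cells on each day, so they are not independent of that result.

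Mybpc1 (NM_175418, chr10:87981024-88067897, minus strand, 3891 exonic bases), the slow form of myosin-binding protein C, had the largest fitted difference of the 8 between the siRNAs. In siCtrl cells it was listed at 0 on day 0 and then at 9.82, 21.8 and 65.3 FPKM, from 0, 49, 285 and 521 reads. In siKlf5 cells it was at 4.31, 22.4, 112 and 165 FPKM, from 30, 116, 848 and 1151 reads. Every siKlf5 value was above the siCtrl value of its day, and siKlf5 cells on day 2 were above siCtrl cells on day 3. On day 0 the 30 reads in siKlf5 cells stood against 0, and the 95% interval of the log2 ratio began at 0.012. The log2 ratio was 1.18 (-0.06 to 2.57) on day 1, 2.36 (1.88 to 2.87) on day 2 and 1.34 (0.97 to 1.72) on day 3, or 2.28-, 5.14- and 2.53-fold. The fitted effect was 2.58 ± 0.67 (log2, SE), higher on 4 of 4 days, with an adjusted p of 0.315 (limma). It rests in part on the 0 of day 0, without which it was 1.62 (adjusted p = 0.428, limma).

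Mybpc2 (NM_146189, chr7:51757069-51780039, minus strand, 3594 exonic bases), the fast form, stood at 0.99, 14.8, 56.5 and 84.3 FPKM in siCtrl cells. In siKlf5 cells it was listed at 0 on day 0 and then at 9.81, 24.3 and 58.6 FPKM. It was the lower of the pair on each day, though day 0 rests on 7 and 0 reads, under the limit, and gives no fold. The log2 ratio was -0.58 (-2.11 to 0.85) on day 1, -1.21 (-1.86 to -0.61) on day 2 and -0.52 (-1.0 to -0.06) on day 3. The effect over the days was -1.44 ± 0.54 (log2, SE, adjusted p = 0.463, limma), and -0.77 without day 0.

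The order of the slow and the fast form thus differed between the siRNAs. Mybpc1 over Mybpc2 was 0.666, 0.386 and 0.775 in siCtrl cells on days 1, 2 and 3, and 2.28, 4.61 and 2.82 in siKlf5 cells. The fast form was the more abundant of both in siCtrl cells and the slow form in siKlf5 cells on each of the 3 days, although the intervals of the pair within a library included an equal level in siCtrl cells on days 1 and 3 and in siKlf5 cells on day 1. The ratio was 3.43-, 11.9- and 3.64-fold higher in siKlf5 cells, and the exact sign-flip test over these 3 days gave p = 0.25, the smallest it can give. Mybph over Mybpc2 showed no such order, at 120, 46.4 and 39.6 in siCtrl and 115, 78.9 and 29.4 in siKlf5 cells on the same days, higher in siKlf5 cells on 1 of 3 days (exact sign-flip p = 1). In all, 5 pairs of the 8 genes were compared in this way, the last being Ttn over Myom2, at 0.0703, 0.0715, 0.0832 and 0.046 in siCtrl and 0.115, 0.136, 0.0942 and 0.133 in siKlf5 cells (exact sign-flip p = 0.125). Adjusted over the 5 pairs, the p of these exact tests were 0.208 for the 3 pairs with Myom2, 0.312 for Mybpc1 over Mybpc2 and 1 for Mybph over Mybpc2. The 5 pairs were not among the planned tests and share genes, so they add no independent evidence. Ttn and Myom2 also differ in length, with 81737 and 4914 exonic bases, and the part of length in their ratio was not tested.

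**Figure D2:**
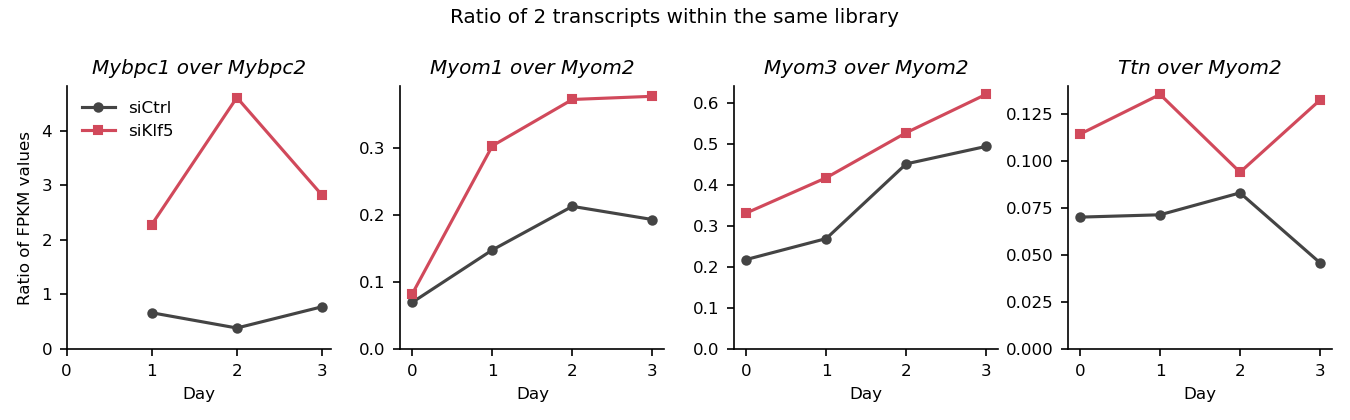
Ratio of the FPKM values of 2 transcripts within the same library (vertical axes from 0, each panel with its own scale) by day, siCtrl in grey circles and siKlf5 in red squares, 1 library per point. The panels are Mybpc1 over Mybpc2 and Myom1, Myom3 and Ttn over Myom2, and the siKlf5 points lie above the siCtrl points in these 4. For Mybpc1 over Mybpc2, where day 0 has no ratio, they lie at 2.28 to 4.61 against 0.386 to 0.775. A further pair that was compared, Mybph over Mybpc2, is not drawn. Its ratio was higher in siKlf5 cells on 1 of 3 days.

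Ttn (NM_028004, chr2:76542041-76820604, minus strand, 81737 exonic bases) was the longest transcript of the 9 and, per length, among the least abundant. It had 7.48, 33.3, 77.3 and 51.9 FPKM in siCtrl cells on days 0 to 3. It had 8.37, 51.0, 61.8 and 98.2 FPKM in siKlf5 cells. The siCtrl value was the higher one on day 2 and the siKlf5 value on the other days. With 1202 to 21220 reads per library the counting intervals were narrow, and the log2 ratio was 0.16 (-0.13 to 0.45), 0.62 (0.47 to 0.77), -0.32 (-0.41 to -0.24) and 0.92 (0.83 to 1.02) on days 0, 1, 2 and 3. The effect over the days was 0.34 ± 0.24 (log2, SE, adjusted p = 0.677, limma), and 0.15 without day 3 or 0.57 without day 2.

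Other long transcripts moved in part with Ttn. The 197 expressed transcripts of at least 10 kb, a limit chosen after these values were seen, had a median log2 ratio of 0.18, -0.004, -0.41 and 0.26 on days 0 to 3, while the median of all expressed transcripts stayed between -0.03 and 0.03. Neb (nebulin, 22330 exonic bases) had log2 ratios of -0.16, 0.58, -0.35 and 0.64. From day 2 to day 3 the median of the long transcripts shifted by -0.30 in siCtrl and by 0.34 in siKlf5 cells, and Ttn by -0.57 and 0.67. The part of transcript length in the values of Ttn was not tested.

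**Figure D3:**
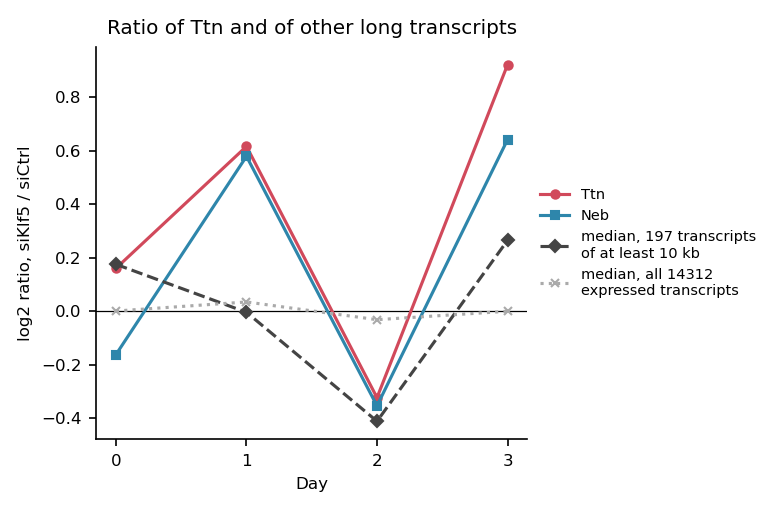
Log2 ratio of siKlf5 to siCtrl (vertical axis) by day for Ttn and Neb, with the median of the 197 expressed transcripts of at least 10 kb (dashed) and of all 14312 expressed transcripts (dotted). Ttn, Neb and the long-transcript median are each lowest on day 2, at -0.32, -0.35 and -0.41, where the median of all transcripts is -0.03.

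Day by day, the 8 genes did not lean one way. On day 0, 2 of 8 (Mybph and Mybpc2, the latter under the read limit) were lower in siKlf5 cells by more than 1.5-fold, against 11.1% of all transcripts, and 1 (Mybpc1) was higher, against 9.22%. On day 1 there was 1 lower (Mybph), against 11.0%, and 3 higher (Myom1, Mybpc1 and Ttn), against 16.4%. On day 2 there was 1 lower (Mybpc2), against 13.0%, and 1 higher (Mybpc1), against 7.69%. On day 3 there were 2 lower (Mybph and Myom2), against 12.5%, and 2 higher (Mybpc1 and Ttn), against 10.7%. The median log2 ratio of the 8 was -0.19, 0.43, -0.30 and -0.10 on the 4 days. These counts have no test, since each day has 1 library per siRNA.

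**Figure D4:**
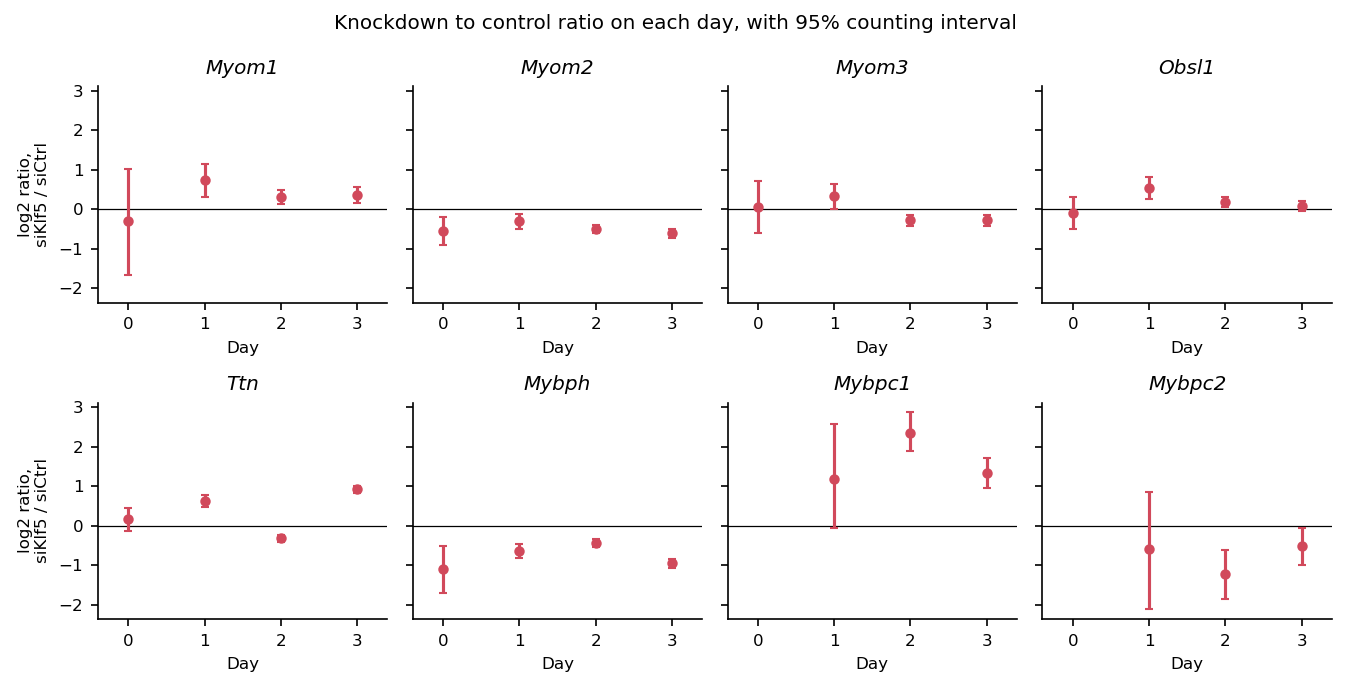
Log2 ratio of siKlf5 to siCtrl (vertical axis, shared) for each detected gene on days 0 to 3, with 95% counting intervals on reads in units of 6. Mybpc1 and Mybpc2 are not drawn on day 0, when 1 of the 2 libraries was at 0. Myom2 and Mybph lie below 0 on all 4 days and Mybpc1 above 0 on each day drawn, and Ttn changes side on day 2.

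Over the 4 days 0 of the 8 passed the adjusted test, and 4 had an unadjusted p under 0.05 in limma (Mybph, Myom2 and Mybpc2 lower, Mybpc1 higher), where 1374 of 14312 transcripts did. A change of the siRNA effect with day, fitted as a slope, was called for 0% of transcripts in the lower and 0% in the higher direction, with 694 at an unadjusted p under 0.05. Among the 8 genes only Mybpc1 was one of these, at -1.12 per day (log2, adjusted p of 1.00, limma), and its slope was 0.079 without day 0.

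**Figure D5:**
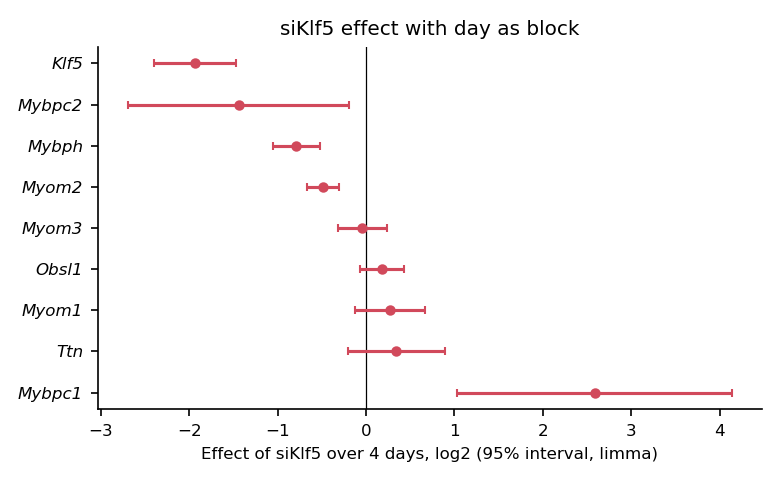
Effect of siKlf5 over the 4 days on the log2 scale (horizontal axis) with 95% intervals from limma with day as block, for Klf5 and the 8 detected genes. Klf5 at -1.94 was the one called; the intervals of Mybph, Myom2 and Mybpc2 lie below 0 and that of Mybpc1 above 0, with adjusted p of 0.0868, 0.125, 0.463 and 0.315.

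The order of the genes by FPKM changed over the days. In siCtrl cells on day 3 it was Mybph, Myom2, Myom3, Obsl1, Myom1, Mybpc2, Mybpc1 and Ttn, and the intervals did not separate Myom3 from Obsl1 (1.01-fold, 0.93 to 1.11) or Mybpc2 from Mybpc1 (1.29-fold, 0.96 to 1.74). In siKlf5 cells on day 3 Obsl1 stood above Myom3 by 1.26-fold (1.15 to 1.39), Mybpc1 stood in the sixth place, and Mybpc2 was last. Mybph exceeded Myom2 by 2.96-fold (2.78 to 3.15) in siCtrl and by 2.33-fold (2.13 to 2.54) in siKlf5 cells. On day 0 in siKlf5 cells Myom2, Mybph and Obsl1 could not be separated, with 73.1, 66.8 and 56.1 FPKM.

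The other genes of the sarcomere are given by 3 lists. As background, 12.8% of all 14312 transcripts were called higher and 17.6% lower on day 3 than on day 0. For the siRNA effect, 1374 of the 14312 had an unadjusted p under 0.05 in limma, both directions together. Of 25 partners of the M-band and titin, 23 were expressed, and 17 rose and 3 fell (Sqstm1, Smyd2 and Hsp90aa1) from day 0 to day 3, with a median log2 difference of 2.13 where that of the 8 genes was 4.51 and that of all transcripts -0.09. None of the 23 passed the siRNA test, and their median effect was 0.01. The lowest was Tcap (telethonin, which caps titin at the Z-disc) at -0.93, and the highest were Actn2 (alpha-actinin-2, which anchors titin at the Z-disc) at 0.57 and Igfn1 at 0.51, with adjusted p between 0.237 and 0.634 (limma). At an unadjusted p under 0.05, 1 was lower and 2 were higher. Tcap was at -0.47 without day 1. Of 13 thick filament myosins, 12 were expressed and all 12 rose. Myl4 (an embryonic light chain) was called lower in siKlf5 cells, at -1.03 on the log2 scale (adjusted p = 0.00659, limma), and was among the 3 transcripts most like Myom2. Myh4 (the fast type IIb heavy chain) was called higher, by 1.5 on the log2 scale (adjusted p = 0.0185, limma). Neither was called when any 1 day was left out, with effects from -1.09 to -0.99 for Myl4 and from 1.43 to 1.59 for Myh4. At an unadjusted p under 0.05, 4 of the 12 were lower and 2 higher. Myh4 had 7.97, 22.6, 71.2 and 228 FPKM in siCtrl and 25.6, 53.0, 231 and 598 FPKM in siKlf5 cells. The lowest were Myh7 (the slow heavy chain) at -2.16 and Myh6 at -1.63, near-identical copies whose reads can be shared, and Myh7b stood at 1.07, none of these 3 past the threshold. Myh7b was at 0.48 without day 0, and on day 3 it was lower in siKlf5 cells, at 110 against 147 FPKM. The slow heavy chain Myh7 was thus lower in siKlf5 cells on 4 of 4 days while the slow binding protein Mybpc1 was higher, and the fast heavy chain Myh4 was higher while the fast binding protein Mybpc2 was lower. Of these 4 only Myh4 passed the test. Myh7 and Myh4 were the lowest and the highest of their list, and the other fast heavy chains are not described here. Of 22 genes of the thin filament and Z-disc, all expressed, 21 rose with differentiation (Tmod4 did not pass) and 0 passed the siRNA test, with 4 lower and 0 higher at an unadjusted p under 0.05. Their extremes were Myoz2 at -2.27, Tmod4 at -2.23, Acta1 at 0.17 and Neb at 0.18, with adjusted p between 0.47 and 0.809 (limma). Both low values rest on 1 siKlf5 library listed at 0, and were -0.92 for Myoz2 without day 0 and -0.71 for Tmod4 without day 2.

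Transcripts with the most similar course were named by Pearson's r of log2 values over the 8 libraries, among the 11583 other transcripts whose mean was 10 FPKM or more. The libraries share their day and depth, and for each of 7 genes between 217 and 424 candidates had r above 0.95, so the names are a description. Mybph was most like Adora1, Jph2 and Spon2 (r of 0.998, 0.998 and 0.994). Myom2 was most like Tmem182, Myl4 and Apobec2 (0.998, 0.997 and 0.996). Myom1 came with Trim72, Tmem38a and Neb (0.998, 0.997 and 0.995), Myom3 with Hsd11b1, Filip1 and Inpp4a (each 0.998), and Obsl1 with Col1a1, Tmem38b and Smpx (0.998, 0.995 and 0.995). Ttn came with Arhgap28, Nmrk2 and Klhl13 (0.994, 0.993 and 0.992), and Mybpc2 with Dapk2, Egr3 and Synpo2l (each 0.992). Mybpc1 stood apart, as 15 candidates reached r above 0.95, led by Tceal7, Hspb7 and 2010107E04Rik (0.988, 0.982 and 0.981). Among the 28 pairs of the 8 genes, r ranged from 0.69 to 0.99 with a median of 0.95.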

How the data were processed

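The 8 RNA-seq libraries of the series were analysed. Per the labels and the study's methods, the authors aligned reads to mm9 with STAR and used HOMER to count those on exons of RefSeq transcripts, on either strand (so antisense genes can share reads), at most 3 at a position and 1 transcript for each gene. The deposited values are FPKM with the library total set to 10000000. A further 8 log2 columns were not used, since 1 of them names no day. The study's text mentions counts normalized with DESeq2, which were not used here.

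Reads were recovered from FPKM and exon length, and all values checked lay within 0.1 of a whole number. Because transcripts with 6 reads outnumbered those with 5, exact 95% intervals took 6 reads as 1 unit, and the limit for a count of 0 was 3 such units, 18 reads. Ratios and tests used log2(FPKM + 0.1) for the 14312 transcripts whose mean was 1 or more. The added 0.1 shrinks changes between low values above 0, but sets the size of a change against a value of 0, which can be overstated. With a pseudocount of 1 the fitted siRNA effect was 1.79 for Mybpc1 and -0.81 for Mybpc2. limma 3.58.1 (R 4.3.3, with intensity trend) fitted siRNA plus day, or a slope of the siRNA effect with day, with Benjamini-Hochberg adjustment over all transcripts and a threshold of 0.05. For the siRNA effect and its slope the days stand in for replicates, so those p-values measure the spread of the effect between days. For day 3 against day 0 the siRNAs stand in for replicates, with 1 culture of each per day. The fit was tested on simulated data with independent errors and an siRNA effect the same on each day. That checks the calculation and not the use of days as replicates. The genes and gene lists were chosen with earlier results of these data known. Named were the 9 genes, Klf5, the 3 most correlated transcripts of each detected gene, and the 2 lowest and 2 highest genes of each list by siRNA effect, of which 1 is not reported here. Myl4 in its list, the genes that fell or did not pass in a list, and the 10 kb limit were chosen after values were seen. The pairs of genes compared within a library, and their sign-flip tests, were not in the plan. Upstream sequences and GENCODE exons came from mm9 at the starts of the table. Alternatives were other pseudocounts, filters, scalings and cutoffs, the fit without trend or day, and each day left out. Calculations ran in Python 3.11.15 (pandas 2.3.3, numpy 2.4.6, scipy 1.17.1), with matplotlib 3.10.9 for the plots.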

Additional observations from a re-analysis of the deposited data

Results flagged for a closer look

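For 2 genes the siRNAs moved opposite ways from day 2 to day 3, a difference that was not tested, with 1 library at each point. Ttn shifted by -0.57 on the log2 scale in siCtrl cells and by 0.67 in siKlf5 cells. The median of the 197 expressed transcripts of at least 10 kb shifted by -0.30 and 0.34 over the same days. Mybph shifted by 0.35 in siCtrl and by -0.16 in siKlf5 cells, and the counting interval of the latter ran from -0.28 to -0.03. The 200 transcripts with the highest means, Mybph among them, had a median shift of 0.27 in siCtrl and -0.03 in siKlf5 cells. Their median log2 ratio of siKlf5 to siCtrl was 0.37 on day 2 and 0.06 on day 3.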

How the results depend on the processing

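The 8 detected genes kept their calls between day 0 and day 3 under every alternative run, and none was called for the siRNA effect under any, with adjusted p for Mybph between 0.0678 and 1.00 (limma). The 8 lower and 1 higher transcripts called over the 4 days became 0 and 0 without the trend and 1 and 0 without day as a block; leaving out each day in turn gave 0 to 0 in both directions. Without the trend 1366 transcripts were called lower on day 3 than on day 0. With a 2-fold cutoff the genes past it on day 1 were 0 lower and 1 higher, and on day 3 0 lower and 1 higher. The share of all transcripts past 2-fold is not given here, so these counts have no background. Transcripts past 1.5-fold lower on days 0 to 3 were 2644, 2531, 2978 and 2849 with no filter and 1001, 1040, 1138 and 1128 with a mean of at least 5. Higher ones for days 0, 2 and 3 were 2374, 2276 and 2573 with no filter, against 743, 551 and 933 with that minimum. The effect on Myom3 turned to 0.037 when day 2 or day 3 was left out, and ranged from -0.16 to 0.037 over the 4 days left out in turn. Without day 0, an alternative chosen after seeing the data, the slopes of Myom1, Mybpc1, Mybph and Obsl1 turned to -0.19, 0.079, -0.15 and -0.23. The cause was not tested. By Spearman's rho, 7 of the 24 most similar transcripts reached the rho of the third rank, at which 4 to 42 candidates per gene stood, many of them tied. The alternative with the deposited log2 columns was not run, since 1 column names no day. Depth limits Mybpc1, Mybpc2 and Myom1 on day 0, which rest on at most 77 reads.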
